A study of Homo sapiens with 15 samples.

Results

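The drug efflux pumps described here are 8 ATP-binding cassette (ABC) transporters, taken by name from the gene column of both deposited tables: ABCB1, ABCC1, ABCC2, ABCC3, ABCC4, ABCC5, ABCC10 and ABCG2. All 8 of the 8 names were found among the 16887 genes of each table. RNA was sequenced from Mia PACA-2, an established human pancreatic cancer cell line, in 15 libraries: 5 of control cells, 5 of cells overexpressing cytidine deaminase (CDA) and 5 of cells overexpressing CDA_E67Q, a form of the enzyme with 1 changed residue. Each group held pools 1 to 5, no drug or other treatment is named for any group, and all were grown in the same medium with serum. What a pool stands for, the vector and promoter behind CDA, and whether pools are separate cultures are not given in the labels. The p-values therefore rest on library-to-library spread, part or all of which may be technical.

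ABC pumps use ATP to move drugs, drug conjugates and signalling molecules out of the cell, and are known for resistance of tumours to chemotherapy. ABCB1 (P-glycoprotein) and ABCG2 export many unmodified drugs. ABCC1, ABCC2 and ABCC3 export organic anions, among them glutathione and glucuronide conjugates. ABCC4 and ABCC5 export cyclic nucleotides and monophosphates of nucleoside analogues. CDA acts on some nucleoside analogues. ABCC10 exports lipophilic drugs such as taxanes.

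The values are normalised counts turned back from the deposited log2 scale, and all 15 libraries were put on 1 scale through the 5 control libraries that stand in both tables. Summed normalised counts ran from 23.3 to 28.4 M per library, and the estimated depth from 21.4 to 31.3 M reads. The CDA transcript stood at 9.91 to 312 in the control and 775 to 5222 in CDA, so all CDA libraries lay above all control libraries. In CDA_E67Q it stood at 1334 to 5383. Those values are on the scale of the table that holds CDA_E67Q and were not brought to the common scale. Of 7 markers of the line, the keratins KRT8, KRT18 and KRT19 and the mesenchymal filament gene VIM were high. The epithelial adhesion genes EPCAM (at most 3.50) and CDH1 (at most 3.62) were at or near the floor. Both maxima are on the scale of each library's own table. Pool 5 was set apart in all 3 groups, and 5632 of 11588 genes differed there from the other pools. In the same libraries CDH5, an endothelial cadherin, stood at 618, 576 and 577 (control, CDA and CDA_E67Q), while it was at the floor in the other 12.

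The start regions of 6 of the 8 pumps were held by the RefSeq promoter table (GRCh38.p14), which gives 1 to 5 starts a gene. The 250 bases before a start are shown for the pump at the floor in every library (ABCB1), the pump that was low in pool 5 (ABCC2) and the nucleotide pumps (ABCC4 and ABCC5). Capitals mark TATAA, the GC box GGGCGG and the antioxidant response element TGACNNNGC, each searched on both strands, with overlapping matches counted.
ABCB1, chr7:87600885-87601134, minus strand: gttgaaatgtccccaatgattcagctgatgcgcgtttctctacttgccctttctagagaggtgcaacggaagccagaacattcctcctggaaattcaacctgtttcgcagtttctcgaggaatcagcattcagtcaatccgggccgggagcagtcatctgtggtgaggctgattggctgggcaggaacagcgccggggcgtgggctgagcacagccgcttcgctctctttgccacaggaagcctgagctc
ABCC2, chr10:99782390-99782639, plus strand: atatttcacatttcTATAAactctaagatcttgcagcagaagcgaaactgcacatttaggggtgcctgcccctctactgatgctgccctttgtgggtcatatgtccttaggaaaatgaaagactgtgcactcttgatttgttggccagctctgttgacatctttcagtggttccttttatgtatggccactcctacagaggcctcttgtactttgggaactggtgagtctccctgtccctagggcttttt
ABCC4, chr13:95301452-95301701, minus strand: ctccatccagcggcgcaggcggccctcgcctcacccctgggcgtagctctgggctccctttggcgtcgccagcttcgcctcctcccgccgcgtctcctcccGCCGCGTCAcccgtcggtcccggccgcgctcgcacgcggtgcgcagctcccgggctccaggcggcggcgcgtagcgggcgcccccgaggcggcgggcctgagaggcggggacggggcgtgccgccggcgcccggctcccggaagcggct
ABCC5, chr3:184017885-184018134, minus strand: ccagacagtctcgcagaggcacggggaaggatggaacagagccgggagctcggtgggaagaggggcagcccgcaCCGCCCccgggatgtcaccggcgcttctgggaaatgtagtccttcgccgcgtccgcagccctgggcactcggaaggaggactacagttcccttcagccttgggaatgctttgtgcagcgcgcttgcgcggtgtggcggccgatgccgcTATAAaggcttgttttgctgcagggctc

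ABCB1 held none of the 3 motifs in this window and 12 CpG dinucleotides. ABCC2 held 1 TATAA and 1 CpG. ABCC4 held 1 antioxidant response element and 42 CpG, and ABCC5 held 1 GC box, 1 TATAA and 21 CpG. Of 35116 promoters in the table, 42.6% held a GC box, 18.9% a TATAA and 10.9% an antioxidant response element, and the median number of CpG was 11. The ABCC2 window is therefore poor in CpG (the lower quartile of all windows is 3), and the ABCC4 and ABCC5 windows are above the median. The second ABCB1 start in the table, at chr7:87713296-87713545, held 1 CpG and none of the motifs. The 2 ABCC10 windows held 16 and 14 CpG, the first with 3 GC boxes and the second with 2 TATAA and 1 antioxidant response element. The 5 ABCG2 windows held between 2 and 32 CpG. Which start these cells use is not measured by gene totals.

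ABCB1, on chromosome 7 at positions 87503633 to 87713323 (minus strand, GRCh38), was listed at the floor in all 15 libraries, in both tables. ABCG2, on chromosome 4 at 88090264 to 88231322 (minus strand), was the other low pump, with 0.572 to 29.2 in the control, 0 to 41.6 in CDA and 0.855 to 39.5 in CDA_E67Q. It was at the floor in 1 library, CDA of pool 3. The drug pumps with the broadest drug range were thus at the floor or near it.

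The ABCC pumps were all above the floor in every library. ABCC1 lies on chromosome 16 at 15949577 to 16143074 (plus strand), ABCC2 on chromosome 10 at 99782640 to 99852594 (plus) and ABCC3 on chromosome 17 at 50634777 to 50692252 (plus). ABCC4 lies on chromosome 13 at 95019829 to 95301475 (minus), ABCC5 on chromosome 3 at 183919934 to 184018015 (minus) and ABCC10 on chromosome 6 at 43427366 to 43450430 (plus). Only ABCC10 shared annotated exon bases with another gene, DLK2 on the opposite strand, over 79 of 5469 exon bases, 1.44%.

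Levels of different pumps were compared per kilobase of the principal transcript in GENCODE release 29, in the control libraries (mean ± SD, n = 5). ABCC1 came first with 314 ± 86.1 normalised counts per kb, followed by ABCC2 with 217 ± 94.4 and ABCC5 with 198 ± 55.7. ABCC10 stood at 136 ± 43.9 and ABCC4 at 122 ± 35.8. ABCC3 (45.1 ± 23.9) and ABCG2 (2.95 ± 3.07) came last. The control ranges of all neighbours in this order overlapped, except those of ABCC3 and ABCG2. Library by library, ABCC1 was above ABCC2 in 12 of 15 libraries, ABCC2 above ABCC5 in 10, ABCC5 above ABCC10 in 14 and ABCC10 above ABCC4 in 11. ABCC4 was above ABCC3, and ABCC3 above ABCG2, in all 15. The order was thus the same in all libraries only from ABCC4 down to ABCG2, and neighbours above ABCC4 changed places. Pumps farther apart separated in the control: the control range of ABCC1 (226 to 427) lay above those of ABCC10 (77.1 to 192) and ABCC4 (71.7 to 164). Transcript length is that of 1 annotated form, and the forms in use were not measured.

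The comparison of CDA with control asked whether overexpression of the enzyme went with other levels of the pumps. No pump passed the test in this comparison. By limma (Benjamini-Hochberg adjustment over 11341 genes, threshold 0.05), 0 of the 7 pumps tested were called, beside 0 of 11341 genes (0.00%) overall. At an unadjusted p under 0.05 there were 0 pumps and 32 genes (0.282%). The CDA transcript itself, at 775 to 5222 with CDA and 9.91 to 312 in the control, was tested and not called. The fit leaves the spread between pools in the error, so it can miss large changes. A pump not called is therefore not shown to be unchanged. The libraries of the 2 groups overlapped for all 7 pumps, while 0.0353% of genes had all CDA libraries higher and 0.0176% all lower. The median log2 difference of the 7 pumps was -0.06, against 0.01 over all genes, with 2 pumps above 0 and 5 below.

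Among the conjugate pumps, ABCC3 had the difference farthest from 0 for an ABCC pump. It stood in pools 1 to 5 at 199, 253, 431, 70.9 and 335 in the control, and at 168, 102, 166, 125 and 403 in CDA. The groups overlapped over most of their range, and the log2 difference was -0.37 (SE 0.50, 95% interval -1.45 to 0.72, adjusted p = 1.00). Within a pool number, CDA was lower in pools 1, 2 and 3 and higher in pools 4 and 5, between 0.384-fold and 1.77-fold of the control. ABCC2 stood at 903, 1196, 1913, 1707 and 593 in the control and at 1526, 802, 1035, 1602 and 582 in CDA. Its lowest library in both groups was that of pool 5. The ABCC2 log2 difference was -0.16 (SE 0.36, 95% interval -0.96 to 0.63), and 4 of 5 pools were lower with CDA. ABCC1 stood at 2501, 1480, 1714, 1788 and 2800 in the control and at 1907, 1579, 1656, 2171 and 2688 in CDA, highest in pool 5 in both groups. The ABCC1 log2 difference was -0.03 (95% interval -0.49 to 0.44).

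The pumps of nucleoside analogue monophosphates had differences near 0. ABCC4 stood at 783, 420, 813, 597 and 962 in pools 1 to 5 of the control and at 744, 538, 615, 717 and 992 in CDA. The ABCC4 log2 difference was 0.04 (SE 0.25, 95% interval -0.50 to 0.58), with 3 of 5 pools higher. ABCC5 stood at 1002, 984, 831, 1517 and 1539 in the control and at 1368, 1375, 874, 872 and 1355 in CDA. In pool 4 CDA was 0.575-fold of the control for this gene, and in pools 1 and 2 it was higher, by up to 1.40-fold. The pool number does not show that a control and a CDA library belong together, so these folds are descriptions. The ABCC5 log2 difference was 0.0045 (SE 0.23, 95% interval -0.49 to 0.50).

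For the remaining pumps the interval was of like width for ABCC10 and wide for ABCG2. ABCC10 stood at 658, 835, 392, 607 and 975 in the control and at 734, 528, 614, 486 and 892 in CDA, a log2 difference of -0.06 (95% interval -0.63 to 0.51). ABCG2 stood at 8.34, 1.42, 0.572, 29.2 and 26.5 in the control and at 13.5, 1.86, 0, 10.4 and 41.6 in CDA. For both genes the 2 groups overlapped. The ABCG2 log2 difference was -0.11 (95% interval -2.73 to 2.51) on the log2(normalised count + 1) scale, which understates differences at this level. A change of 2.51 log2 in either direction would lie within that interval, whereas for ABCC1, ABCC4 and ABCC5 the intervals end at or within 0.58 on either side.

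Cells with the altered enzyme were set against control within the table that holds both. No pump passed the test. By limma 0 of 6 pumps tested were called, beside 0 of 11341 genes (0.00%), and at an unadjusted p under 0.05 there were 0 pumps and 54 genes (0.476%). The overexpressed CDA transcript was again among the genes not called, so the same limit holds. The groups overlapped for all 6, while 0.0353% of genes had all CDA_E67Q libraries higher and 0.0441% all lower. ABCG2 was not tested, since 4 libraries of that table reached a normalised count of 10 where 5 were required. The median log2 difference of the 6 pumps was 0.02, against 0.01 over all genes, with 3 above and 3 below 0.

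On the common scale, with the control values given above, CDA_E67Q of pools 1 to 5 held ABCC1 at 1968, 927, 1865, 2307 and 2560. ABCC2 stood at 1431, 1644, 1585, 1323 and 533, and ABCC3 at 322, 214, 220, 110 and 482. For these conjugate pumps pool 5 was again highest (ABCC1 and ABCC3) or lowest (ABCC2). ABCC4 stood at 538, 513, 600, 868 and 1008, and ABCC5 at 1417, 1036, 852, 936 and 1517. ABCC10 stood at 738, 1192, 573, 613 and 890, and ABCG2 at 8.10, 1.48, 0.855, 11.3 and 39.5. The nucleotide pumps and ABCG2 were highest in pool 5, and ABCC10 in pool 2.

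ABCC10 had the estimate farthest from 0. On the scale of that table it was 609 ± 195 in the control and 704 ± 220 with CDA_E67Q (mean ± SD, n = 5), a log2 difference of 0.22 (SE 0.28, 95% interval -0.39 to 0.83, limma adjusted p = 1.00). It was higher in 4 of 5 pools, and the highest value in that group, 1047, was that of pool 2. ABCC1 stood at 2019 ± 549 in the control and 1891 ± 611 with CDA_E67Q, a log2 difference of -0.13 (95% interval -0.74 to 0.48), and its lowest library, at 910, was also that of pool 2. ABCC3 stood at 217 ± 114 and 227 ± 118 (log2 difference 0.13, 95% interval -0.95 to 1.21), with pool 3 at 0.511-fold and pool 1 at 1.62-fold of its control. ABCC2 stood at 1179 ± 513 and 1216 ± 419 (0.07, 95% interval -0.75 to 0.88). Each of these differences was smaller than the SD within either group. For the nucleotide pumps, ABCC4 stood at 706 ± 205 and 697 ± 218 (-0.02, 95% interval -0.61 to 0.57), and ABCC5 at 1158 ± 324 and 1136 ± 293 (-0.02, 95% interval -0.54 to 0.49). ABCG2, listed without a test, had values of 0.892 to 41.2 with CDA_E67Q and 0.596 to 30.6 in the control.

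**Figure D1:**
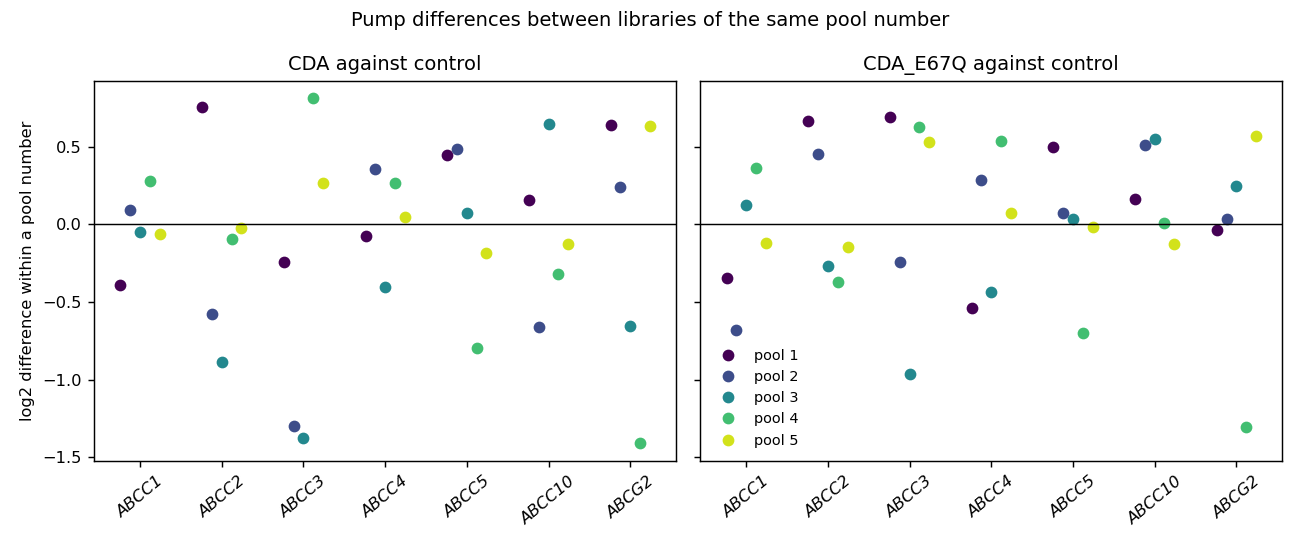
Log2 difference of each overexpressing library from the control library of the same pool number, for 7 pumps, with 1 point per pool. For every pump the points lie on both sides of 0. ABCB1, at the floor, is not drawn.

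CDA and CDA_E67Q, the wild-type enzyme and its altered form, were set against each other on the common scale. By limma 0 of 7 pumps were called beside 0 of 11588 genes (0.00%), with 0 pumps and 24 genes (0.207%) at an unadjusted p under 0.05. No pump had separate groups, against 0.0173% of genes higher and 0.0259% lower in every CDA library. The median log2 difference of the pumps was -0.01, against 0.00 over all genes. ABCC3 stood at 193 ± 121 in CDA and 270 ± 140 in CDA_E67Q (log2 difference -0.50, SE 0.49, 95% interval -1.54 to 0.55), and was lower with CDA in 4 of 5 pools. ABCC10 stood at 651 ± 165 and 801 ± 251 (-0.28, 95% interval -0.84 to 0.28). ABCC2 stood at 1109 ± 446 and 1303 ± 449 (-0.23, 95% interval -1.04 to 0.58). For ABCC1, ABCC4, ABCC5 and ABCG2 the log2 differences were 0.11, 0.06, 0.03 and -0.01. The fit with pool number as a block used all 15 libraries, control included, so it is not a paired test of these 2 groups alone. Controls that were less like their own pool number, as in pool 1, enter its spread. Its 95% intervals were narrower: -0.22 to 0.43 for ABCC1, -0.29 to 0.40 for ABCC4 and -0.35 to 0.40 for ABCC5. They were -0.69 to 0.13 for ABCC10, -0.70 to 0.24 for ABCC2 and -1.15 to 0.15 for ABCC3. All 6 include 0, and differences within them are not excluded.

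Pool number, rather than group, accounted for most of the spread of the pumps. On the log2 scale it held 95.2% of the variance of ABCG2 over the 15 libraries, 77.1% for ABCC1, 75.5% for ABCC4, 74.5% for ABCC2, 68.8% for ABCC3, 59.3% for ABCC5 and 58.1% for ABCC10. The median over 11588 genes was 61.0%, so ABCC1, ABCC2, ABCC3 and ABCC4 lay above it and ABCC5 and ABCC10 just below. ABCG2 is left out of this reading. It passed the filter on low values only through pool 5, where it was highest, so a large share for pool number follows in part from that selection. Group held between 0.0796% (ABCG2) and 8.98% (ABCC10), with a median of 4.35% over all genes. With 5 pool numbers and 3 groups, a larger share for pool number is in part a matter of the number of levels. The SD over the 15 libraries ran from 0.35 log2 for ABCC5 to 0.82 for ABCC3 and 1.82 for ABCG2, against a median of 0.41 over all genes.

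**Figure D2:**
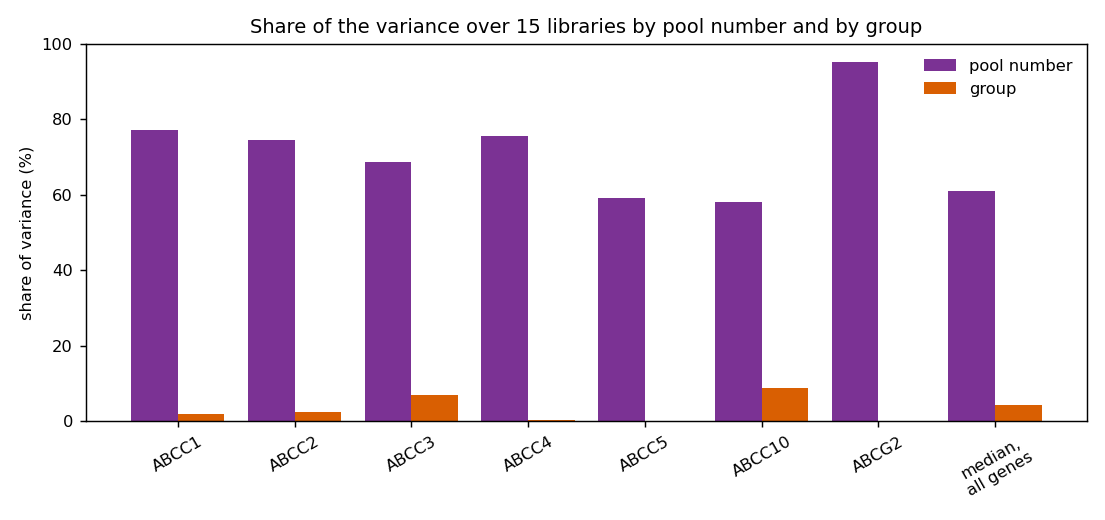
Share of the variance over 15 libraries (%) held by pool number and by group for 7 pumps, beside the median over all 11588 genes tested. Pool number holds 58.1 to 95.2% for the pumps, and group at most 8.98%.

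By limma's F test of pool number with group in the fit, 4 of the 6 ABCC pumps differed between pool numbers: ABCC2 (adjusted p = 0.00703), ABCC1 (0.00837), ABCC3 (0.0117) and ABCC4 (0.0186). The background was 5217 of 11588 genes (45.0%). ABCG2 (0.000755) is left out of this count, because it passed the filter on low values only through pool 5, where it was highest: outside pool 5, 4 libraries reached 10 where 5 were required. Without the filter its adjusted p was 0.000111. ABCC10 (0.0554) and ABCC5 (0.0839) missed the threshold. The range between the highest and lowest pool mean was 4.66 log2 for ABCG2, 2.01 for ABCC3, 1.43 for ABCC2, 1.05 for ABCC1 and 1.02 for ABCC4, with a median of 0.83 over all genes. Without pool 5 in every group, ABCC1 (0.229), ABCC2 (0.716), ABCC3 (0.249) and ABCC4 (0.401) no longer passed, 163 genes were called in all, and ABCG2 did not reach the filter and was not tested. Leaving out 1 library ended the call of ABCC2 without CDA_E67Q replicate 5 (0.0563), of ABCC3 without CDA replicate 5 (0.0506), and of ABCC4 without control replicate 2 or replicate 5 of any group (0.0615 to 0.0757). It gave a call for ABCC5 without control replicate 1 or 4 (0.0377 and 0.0131), and for ABCC10 without CDA replicate 2 or 3 or CDA_E67Q replicate 2 (0.00781 to 0.0413).

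**Figure D3:**
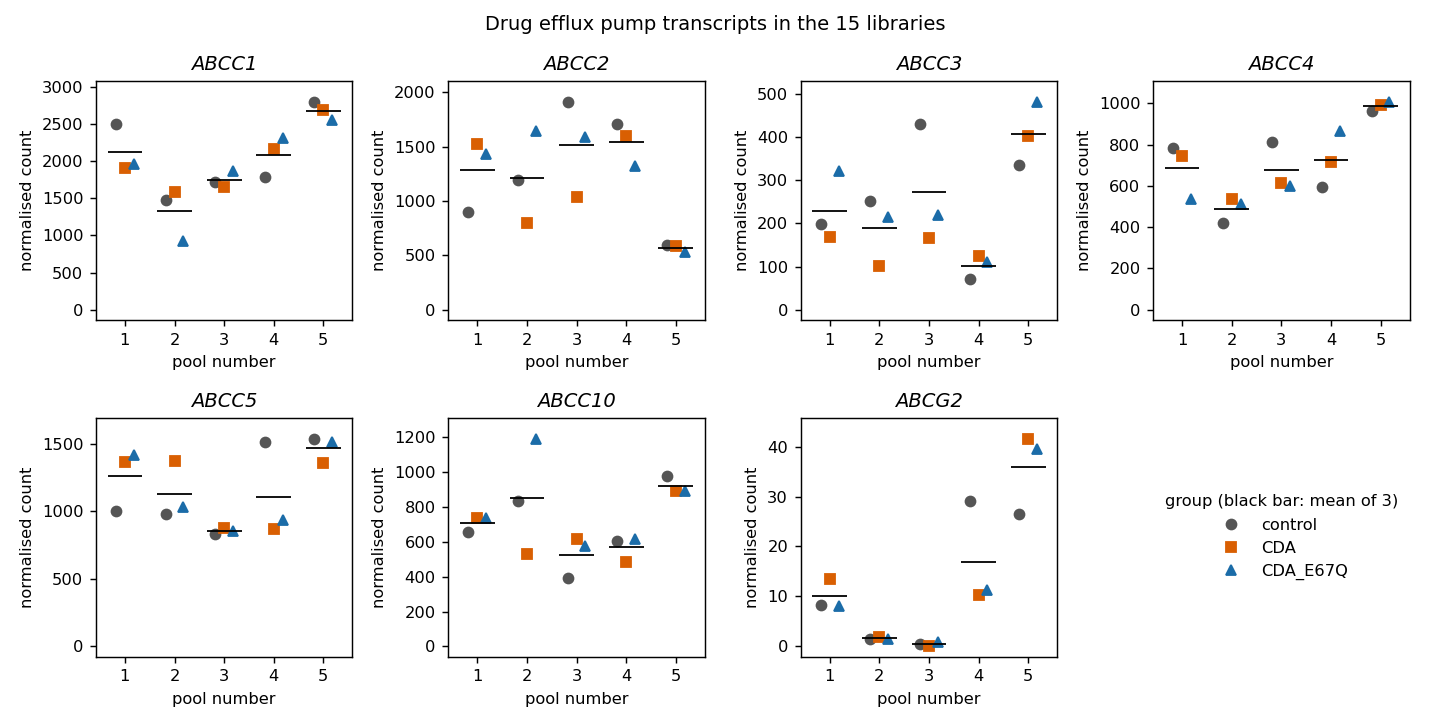
Normalised count on the common scale of 7 pumps by pool number (points: the 3 groups, bar: mean of the 3 libraries). In pool 5, ABCC1 and ABCC4 lie above and ABCC2 below all other libraries.

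Pool 5 had more of 5 ABCC pumps and less of 1. In the contrast of pool 5 with the mean of the other 4 pool numbers, with group in the fit, ABCC1, ABCC3, ABCC4, ABCC5 and ABCC10 rose and ABCC2 fell (limma, adjusted over 11588 genes). The background was 48.6% of genes called, 24.4% higher and 24.2% lower in pool 5. With so many genes called, the pump calls are read as part of a pool that differs broadly.

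ABCG2 had the widest step, with 26.5, 41.6 and 39.5 in pool 5 (control, CDA and CDA_E67Q) against 0 to 29.2 in the other 12 libraries, a log2 difference of 2.85 (SE 0.52, 95% interval 1.71 to 3.99, limma adjusted p = 0.000796). ABCG2 was tested only because of these 3 libraries, so its call gives no support to the pattern, and without the filter the adjusted p was 0.000102. Control of pool 4, at 29.2, was the 1 library outside pool 5 that overlapped it. ABCC3, the exporter of bile acids and glucuronides, stood at 335, 403 and 482 in pool 5 against 70.9 to 431 elsewhere (1.18, SE 0.31, 95% interval 0.52 to 1.85, limma adjusted p = 0.00692). It overlapped pool 5 through the control library of pool 3, and the call ended without CDA replicate 5 (0.0643).

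ABCC4 and ABCC1 in pool 5 lay above all other libraries. ABCC4 stood at 962, 992 and 1008 against 420 to 868 (log2 difference 0.64, SE 0.16, 95% interval 0.29 to 1.00, limma adjusted p = 0.00638). ABCC1 stood at 2800, 2688 and 2560 against 927 to 2501 (0.60, SE 0.15, 95% interval 0.26 to 0.93, limma adjusted p = 0.00678). Of all genes tested, 16.9% had their 3 pool 5 libraries above the other 12. The ABCC4 spread within pool 5 was small beside the step, with an SD of 23.5 over the 3 libraries.

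ABCC10 and ABCC5 passed by little. ABCC10 stood at 975, 892 and 890 in pool 5 against 392 to 1192 (0.52, SE 0.19, limma adjusted p = 0.0399), and ABCC5 at 1539, 1355 and 1517 against 831 to 1517 (0.47, SE 0.18, limma adjusted p = 0.0445). Both overlapped the other pools. The ABCC10 call ended when any of 8 libraries was left out (control replicate 1 or 5, CDA replicate 4 or 5, CDA_E67Q replicate 1, 3, 4 or 5), with adjusted p from 0.0503 to 0.191. The ABCC5 call ended with any of 12 left out, all but control replicate 4, CDA replicate 2 and CDA_E67Q replicate 1, with adjusted p from 0.0508 to 0.168.

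ABCC2, the pump of the bile canaliculus and other apical membranes, moved the other way. It stood at 593, 582 and 533 in pool 5 against 802 to 1913 in the other 12 libraries, a log2 difference of -1.24 (SE 0.22, 95% interval -1.72 to -0.76, limma adjusted p = 0.000664). No library of pool 5 reached the lowest of the others, which 17.3% of all genes also showed in that direction.

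**Figure D4:**
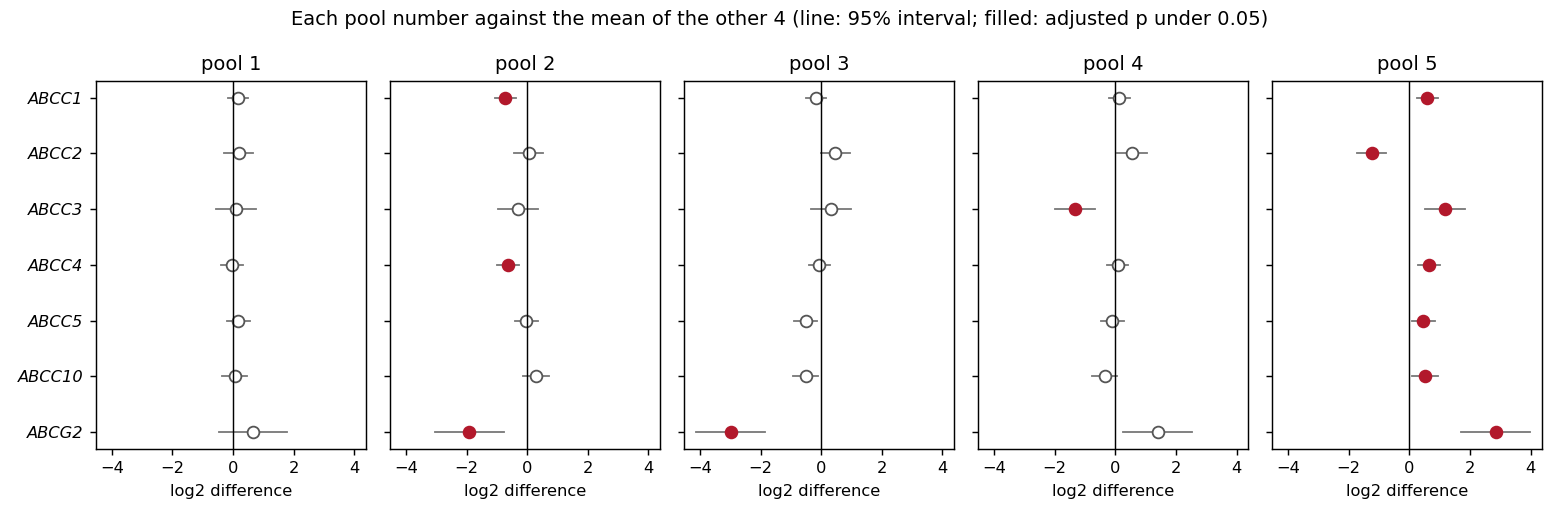
Log2 difference of each pool number from the mean of the other 4 for 7 pumps, with 95% intervals (lines) and filled points where the adjusted p was under 0.05. In pool 5 all 7 points are filled, with ABCC2 alone below 0. ABCG2 passed the filter on low values only through pool 5. Pool 1 has none filled.

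With the filter on low values, the other pool numbers showed fewer calls, each with lower levels. Without the filter ABCG2 was also called higher in pool 4 (log2 difference 1.39, limma adjusted p = 0.0409). The filtered fit gave 0.104 there. The 5 contrasts share libraries and are not independent. In pool 2, ABCC1 (1480, 1579 and 927 in control, CDA and CDA_E67Q) and ABCC4 (420, 538 and 513) lay below all other libraries, with log2 differences of -0.72 (SE 0.15, limma adjusted p = 0.0130) and -0.63 (SE 0.16, 0.0250). ABCG2 stood at 1.42, 1.86 and 1.48 (-1.92, SE 0.52, limma adjusted p = 0.0300). ABCG2 passed the filter only through pool 5, which also enters the mean of the others, so its call gives no support to the pattern. The background in pool 2 was 15.5% of genes called, 8.15% higher and 7.38% lower, and 1.55% had all 3 libraries above and 1.77% below the other 12. Without pool 5 these calls ended for ABCC1 (-0.61, 0.141) and ABCC4 (-0.50, 0.212), and ABCG2 was not tested. The ABCC1 call also ended without CDA_E67Q replicate 2 (0.0774), that of ABCC4 without control replicate 2 or CDA_E67Q replicate 2 (0.112 and 0.0743), and that of ABCG2 without any of 6 libraries (control replicate 2, CDA replicate 1, 2 or 5, CDA_E67Q replicate 2 or 5; 0.0528 to 0.119).

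In pool 3 ABCG2 was at its lowest, 0.572, 0 and 0.855, below all other libraries (log2 difference -2.98, SE 0.52, limma adjusted p = 0.0120). In pool 3, 3.04% of genes were called, 1.43% higher and 1.61% lower, with 1.01% above and 1.08% below the other 12. At these levels the difference rests on a few reads, and the call ended without CDA replicate 3 (0.0958). As in pool 2, ABCG2 was tested only because of its pool 5 libraries, so this call gives no support either. In pool 4 ABCC3 was low at 70.9, 125 and 110 (-1.33, SE 0.31, limma adjusted p = 0.0189), and CDA_E67Q and CDA of that pool overlapped the other pools. The background in pool 4 was 10.7% of genes called, 4.69% higher and 5.98% lower, with 1.42% above and 1.79% below the other 12. The ABCC3 call ended without pool 5 (-1.10, 0.227), without control replicate 4 (0.125) and without CDA_E67Q replicate 4 (0.0981). In pool 1, 0 pumps were called by limma, beside 0.803% of genes (0.242% higher, 0.561% lower), with 0 pumps at an unadjusted p under 0.05. Of all genes, 0.250% lay above and 0.337% below the other 12 there. By the correlation of deviations from group means across genes, the pool 1 control was most like pool 4 of CDA (0.53) and of CDA_E67Q (0.42). With pool 1 its values were 0.01 and -0.06, so the contrasts of pools 1 and 4 may mix unlike libraries.

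Some markers of other cell types moved with the pool 5 pattern. Of 16 such markers, 6 were at the floor in all 15 libraries (LUM and DCN of fibroblasts, MS4A1 of B cells, PRSS1 of acinar cells, INS and GCG of islets), and 3 of the 4 that were tested were higher in pool 5, as were 24.4% of all genes. CD68, a lysosomal gene high in macrophages, stood at 1610.4 ± 139 over the 3 libraries of pool 5 and at 391 to 794 in the means of the other pools. COL1A1 stood at 142 ± 49.0 against means of 17.6 to 51.8. The defining markers were low for leukocytes (PTPRC at most 7.88) and for endothelium other than CDH5 (PECAM1 at most 4.99, VWF at most 15.1). These maxima are on the scale of each library's own table. On the common scale the maxima per kb were 1.96 for PTPRC, 0.731 for PECAM1 and 3.08 for VWF. With each library on the scale of its own table, the summed level of the list ran from 28254 to 31634 in pool 5 and from 7391 to 40230 in the other pools, nearly all of it COL1A2. Of the 5 tested markers of the line itself, 3 rose and 1 fell in pool 5, beside 24.4% of all genes higher and 24.2% lower. KRT8 was the 1 that fell, to 11780 ± 1193 (limma adjusted p = 0.00234). MUC1, a cell surface mucin, rose to 891 ± 159 (3.82e-06). The part of these markers in the pump differences was not tested. In bulk RNA, fewer cells of a type and less RNA per cell cannot be told apart.

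The other members of the ABC family differed in both directions. Of 40 listed, 39 were in the tables and 27 were tested on the common scale. In the pool number test 16 of 27 were called (45.0% of all genes were), and in pool 5 10 rose and 6 fell (24.4% and 24.2% of all genes). In the 3 group comparisons 0 were called by limma and 0 had an unadjusted p under 0.05. The 4 with the highest level per kb were ABCF1, ABCE1, ABCF2 and ABCF3, which bind ATP but have no membrane part and act in translation or ribosome recycling, with 1011, 846, 706 and 602 normalised counts per kb. Each of them exceeded the 304 per kb of ABCC1, the highest pump, over the 15 libraries. ABCF2 (-0.60, limma adjusted p = 0.00665) and ABCE1 (-0.51, 0.0132) fell in pool 5. The 4 with the widest range among those called were ABCC8, ABCG1, ABCA10 and ABCA6. ABCG1, a cholesterol exporter, reached 1161 ± 40.9 in pool 5 against means of 52.0 to 123 (4.36, limma adjusted p = 0.000659). ABCC8, the sulfonylurea receptor subunit of a potassium channel, reached 95.7 ± 18.7 in pool 5, with 24.3 and 13.2 in pools 2 and 3 and the floor in pools 1 and 4. ABCA10 went the other way, at 94.4 ± 49.7 in pool 5 against 626 to 1672 elsewhere (-3.44, limma adjusted p = 8.87e-07), and ABCA6 was low in both pool 5 (13.7 ± 6.39, log2 difference -2.11, limma adjusted p = 0.0292) and pool 2 (17.3 ± 19.7, -2.78, 0.0250), against means of 120 to 177 in the other pools.

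Genes that supply the pumps with substrate or control their transcription were read beside them. Of 17 tested genes of glutathione supply and conjugation, 3 rose and 3 fell in pool 5, beside 24.4% of all genes higher and 24.2% lower, and 0 were called in the group comparisons by limma. GSTP1, a glutathione transferase and the highest of the list per kb, fell in pool 5 to 7697 ± 176 from means of 10157 to 16354 (log2 difference -0.71, limma adjusted p = 0.000497). GSS, the last enzyme of glutathione synthesis, fell to 1953 ± 41.6 from 3270 to 3950 (-0.83, 0.000253). Of 13 tested regulators of pump transcription, 6 rose and 4 fell in pool 5, against the same 24.4% and 24.2% of all genes. ARNT, the dimer partner of the aryl hydrocarbon receptor, rose to 2446 ± 75.4 from 846 to 1380 (1.14, limma adjusted p = 0.000158), and the GC box factor SP1 to 2949 ± 294 from 1396 to 1966 (0.77, 0.000254). NFE2L2, which acts through the antioxidant response element, fell by 0.39 log2 (0.0138), and its inhibitor KEAP1 fell by 0.74 (0.00495); these 2 were chosen after their values were seen. Of 8 tested uptake carriers, 2 rose and 1 fell in pool 5, again beside 24.4% and 24.2%. SLCO1B3, an organic anion uptake carrier of the liver, fell to 236 ± 42.9 from 738 to 1220 (-1.90, limma adjusted p = 1.57e-06), and SLCO2A1, a prostaglandin carrier, rose to 69.8 ± 25.4 from 8.91 to 55.3 (1.87, 0.00672). In the CDA, CDA_E67Q and enzyme form comparisons 0 genes of these 3 lists were called by limma, and 0 had an unadjusted p under 0.05.

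For the 3 pumps with the largest SD over the libraries, the genes of most similar profile were looked up among 11588 by Pearson's r over 15 libraries, as a description. The points share pool numbers, and the step of pool 5 enters every r. For ABCG2 they were CSMD3 (r = 0.92), PTPRF (0.92) and NR3C1 (0.90), and without pool 5 (12 libraries) the values were 0.87, 0.86 and 0.85. For ABCC3 they were ZNF160 (0.94), LRRC23 (0.93) and TMEM8B (0.93), and 0.92, 0.92 and 0.89 without pool 5. For ABCC2 they were ANKMY2 (0.94), YARS1 (0.91) and SEPTIN7 (0.91), and 0.85, 0.70 and 0.71 without pool 5. The ABCC2 neighbours YARS1 and SEPTIN7 thus lost more of their likeness than those of ABCC3 when pool 5 was left out.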

How the data were processed

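Polyadenylated RNA of 15 Mia PACA-2 libraries (3 groups of 5) was sequenced. The tools named, without versions, in the submitters' processing notes are bcl2fastq, FastQC, Trimmomatic and Salmon, with the GRCh38 build. The 2 tables deposited by the authors hold log2 values with the form of variance-stabilised normalised counts, with 1 floor per table (6.65 for CDA, 6.17 for CDA_E67Q); no source used here gives that step. Normalised counts were recovered as (2 to the power of the value minus 2 to the power of the floor), squared, over 2 to the power of the value. Control libraries in both tables then differed by 1 factor per gene and 1 per library (largest residual 3.05e-08 log2), which put 13917 genes on 1 scale; CDA_E67Q libraries took the mean control factor. Depth was estimated by taking the most frequent low value as 1 read; 34.8% of low values (under 12) were whole within 0.05, so reads were not recovered and no count test was run. No counting intervals are given.

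Differences were tested in R 4.3.3 with limma 3.58.1 (mean-variance trend, log2 of normalised count + 1, at least 10 in 5 libraries, Benjamini-Hochberg, 2-sided), checked on simulated data. Groups were compared without pool number in the fit. The simulated counts for the group tests held no spread between pools, so that check does not show how well those tests work here. Values and plots were made in Python 3.11.15 (matplotlib 3.10.9, pandas 2.3.3, numpy 2.4.6). Positions and lengths came from GENCODE 29. The members and lists were chosen with earlier results of these data known. All 8 pumps were named. Of the other ABC genes, the rule named the 4 highest per kb and the 4 with the widest range among those called by pool number, and of each other list the 2 with the smallest pool number p. Alternatives were another pseudocount, filter or scaling, deposited values, pool number as a block, all 15 libraries in 1 fit, no group term, no pool 5, and each library left out. Whether counting used strand is not known here.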

Additional observations from a re-analysis of the deposited data

Results flagged for a closer look

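Among the pumps, 3 of 21 groups of 5 libraries held a library far from the rest, meaning that its gap to the nearest other library was more than 0.71 of the group's range. Chance gives about 1 in 20 groups, but the 21 groups share the same 15 libraries. They are not independent, so 3 of 21 is not shown to be an excess. ABCC2 in CDA_E67Q stood at 498 in pool 5 and at 1235 to 1534 in the other pools, with a gap of 0.711 of the range. ABCC3 in CDA stood at 403 in pool 5 and at 102 to 168 elsewhere, with a gap of 0.782. ABCG2 in CDA_E67Q stood at 41.2 in pool 5 and at 0.892 to 11.8 elsewhere, with a gap of 0.731. All 3 cases were of pool 5. In the control, pool 5 held the lowest ABCC2 (593), but its ABCC3 (335) lay within the range of the other pools and its ABCG2 (26.5) was below that of pool 4 (29.2).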

How the results depend on the processing

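Over 367 alternatives for the pumps in the 3 group comparisons, 0 passed the threshold (lowest adjusted p = 0.965) and 57 changed the sign of the difference. Leaving out 1 library in turn, the log2 difference of CDA from control ran from -0.14 to 0.10 for ABCC1, -0.41 to 0.042 for ABCC2, -0.14 to 0.16 for ABCC4, -0.11 to 0.11 for ABCC5, -0.25 to 0.078 for ABCC10 and -0.69 to 0.61 for ABCG2. For CDA_E67Q it ran from -0.25 to 0.11 for ABCC1, -0.18 to 0.36 for ABCC2, -0.28 to 0.41 for ABCC3, -0.19 to 0.10 for ABCC4 and -0.14 to 0.085 for ABCC5. Between the enzyme forms it ran from -0.14 to 0.23 for ABCC1, -0.068 to 0.20 for ABCC4, -0.073 to 0.13 for ABCC5 and -0.65 to 0.71 for ABCG2. All of these ranges include 0. The ABCG2 range for CDA against control covers 5 fits, where the other pumps had 10. ABCG2 had 5 libraries at 10 or more there, as many as required, so leaving out any of these ended its test. The pool 5 libraries were among them. The sign was kept for ABCC3 with CDA (-0.77 to -0.13) and for ABCC10 with CDA_E67Q (0.033 to 0.36). It was also kept between the forms for ABCC3 (-0.80 to -0.25), ABCC10 (-0.41 to -0.13) and ABCC2 (-0.53 to -0.024). ABCC5 with CDA changed sign under upper-quartile scaling (-0.0053), and ABCG2 between the forms with a pseudocount of 8 (0.064). The cause was not tested.

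Libraries with the same pool number were compared by the correlation of their deviations from group means, across genes. It ran from 0.01 to 0.89 between control and CDA, from -0.06 to 0.88 between control and CDA_E67Q and from 0.33 to 0.89 between the enzyme forms, and in 23 of 30 comparisons a library was most like its own number. The low values are those of the pool 1 control, which was most like pool 4 of CDA (0.53) and of CDA_E67Q (0.42), and the pool 4 control was more like CDA of pool 1 (0.47) than of pool 4 (0.34). Only between the enzyme forms was every library most like its own pool number. A paired test of the enzyme forms alone was not run. With pool number as a replicate block, 0 pumps were called in any group comparison (adjusted p from 0.998 to 1.00). With the block and all 15 libraries in 1 fit, 1 gene was called for CDA and 1 for CDA_E67Q, and 0 pumps (lowest adjusted p = 0.965).

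Genes called in the pool number test ran from 3166 to 5935 with 1 library left out, and fell to 163 without pool 5. For pools 1 to 5 against the rest, the range with 1 library left out was 9 to 226, 461 to 2371, 65 to 600, 276 to 2212 and 3829 to 6020. Without pool 5, an alternative added after seeing the data, the counts for pools 1 to 4 were 28, 68, 109 and 41 (93, 1799, 352 and 1237 with it). In the pool number test ABCC10 passed under upper-quartile scaling (adjusted p = 0.0393) and without a group term (0.0475), as did ABCC5 without a group term (0.0477). The ABCG2 values in pools 2 and 3 are a few reads, which limits their precision.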
